A study of Mus musculus with 4 samples.

Results

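Cells dispose of isoflavones such as genistein by attaching sulfate or glucuronic acid to their hydroxyl groups and by pumping the parent compound or its conjugates out. The 9 genes examined here stand for these steps and were taken by symbol from the gene rows of the count table of 47937 genes. Sult1a1 encodes a sulfotransferase of phenols. Ugt1a6a and Ugt1a7c encode glucuronosyltransferases. Abcg2, Abcb1a, Abcb1b, Abcc1, Abcc4 and Abcc5 encode ATP-driven efflux transporters of the ABC family. All 9 symbols had a row, 8 had counts, and the same 8 passed the filter on low counts and were tested.

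The libraries were total RNA of cultured MEF (mouse embryonic fibroblast) cells, which are connective tissue cells grown from mouse embryos. The untreated group held 2 libraries of cells labelled wild-type, and the genistein group held 2 libraries of MEF cells kept with genistein at 50 µM for 24 h. In the genistein samples the genotype label names the treatment in place of a genotype. All cells grew in high-glucose DMEM with serum, and the labels do not state whether untreated cells received a solvent or whether the libraries of a group came from separate cultures, so the p-values measure only the spread between these libraries. Library totals lay between 28591958 and 31464284 counts over genes and repeats, and log2 CPM values (CPM is the count scaled to the size of the library) correlated with r = 0.996 and 0.995 within groups and 0.960 to 0.964 between them. Counts of the 2 libraries of a group differed beyond sampling noise, with a chi-square of 5.48 (untreated) and 12.1 (genistein) per degree of freedom.

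Conjugation by sulfotransferases and UDP-glucuronosyltransferases makes a small lipophilic molecule water soluble, and the charged product then needs a transporter to leave the cell. These reactions are best known from liver and intestine, where Abcg2 and members of the Abcc group export glucuronides and sulfates into bile or gut. Abcb1a and Abcb1b are the mouse pair of genes for P-glycoprotein, the multidrug pump that exports unconjugated hydrophobic compounds. Fibroblasts are not a tissue of drug clearance, so the levels of these genes in MEF cells are given first.

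Of 10 fibroblast markers listed, 8 had at least 10 counts in a library, led by Fn1, Vim and the collagen genes Col1a1 and Col1a2. Lum had at most 10 counts and Postn at most 26. With genistein, Fn1 was higher (log2 fold change 0.20). Col1a1 (-0.17), Col1a2 (-0.50), Col3a1 (-0.31), Pdgfra (-0.16), Vim (-0.24) and Postn (-1.62) were lower. Thy1, often used to mark fibroblasts, had 0 counts in all 4 libraries, and Fap had at most 1. The defining hepatocyte genes Alb and Ttr had 0 counts, and the 5 hepatocyte markers summed to at most 2 counts in a library. The 4 intestinal markers summed to 8 and 9 counts without genistein and to 4 and 15 with it. The 4 endothelial markers summed to at most 9 counts. The 4 leukocyte markers summed to 85 and 62 counts in untreated cells and to 225 and 211 after genistein, nearly all of it Cd68, while Ptprc had 0 or 1 count. The 4 markers of epithelium summed to 452 and 436 counts without genistein and to 146 and 129 counts with it, mostly Krt8, and Epcam had 0. The part of these shifts in the results below was not tested.

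On a scale per length, the untreated cells held 5 of the 6 transporter mRNAs at 5.67 to 10.2 RPKM. The scale is RPKM, here CPM by scaled library size divided by the kilobases of exon (mean ± SD, n = 2). Exon length counts every annotated exon base of a gene, 15092 for Abcc1 and 6389 for Abcc4. The order between genes therefore also depends on the annotation, which the SD does not cover. Abcc1 was at 10.2 ± 0.248 RPKM, Abcb1b at 9.05 ± 0.332, Abcg2 at 8.24 ± 0.0371 and Abcc4 at 8.15 ± 0.411. Ugt1a7c followed at 5.91 ± 0.0582 RPKM, then Abcc5 at 5.67 ± 0.220 and Ugt1a6a at 4.08 ± 0.0323. The order of Abcg2 and Abcc4 could not be told, since the Abcg2 libraries (8.27 and 8.22 RPKM) lay between those of Abcc4 (7.86 and 8.44). The libraries of Ugt1a7c (5.87 and 5.95 RPKM) and Abcc5 (5.82 and 5.51) did not overlap, but their nearest values differed by less than the SD of Abcc5. Both Ugt1a levels count exon bases that other Ugt1a genes also hold. If no read of these rows came from the shared bases, an upper limit, the levels would be 8.22 RPKM for Ugt1a6a and 13.0 for Ugt1a7c, so their places in this order depend on where the reads lie. On the scale of all exon bases, these 7 genes lay above 46.3% (Ugt1a6a) to 68.6% (Abcc1) of 16157 genes in untreated cells.

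Abcb1a stood far lower, at 0.0498 ± 0.0157 RPKM, above only 1.41% of the genes. Sult1a1 had 0 counts in every library. A count of 0 allows up to 3 counts, which is 0.0953 to 0.105 CPM in these libraries, so Sult1a1 mRNA was not detectable at this depth in either group. Its model, chr7:126672865-126676432 on the minus strand of GRCm38, overlaps 61 bases of Sgf29 on the opposite strand, and Sgf29 had 307, 286, 153 and 138 counts in untreated 1 and 2 and genistein 1 and 2.

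With genistein, over all exon bases, Abcb1b led at 25.0 ± 0.350 RPKM, followed by Ugt1a7c at 18.4 ± 0.260, Ugt1a6a at 13.3 ± 0.534, Abcc1 at 12.2 ± 0.284 and Abcc5 at 11.8 ± 0.0774. Abcc4 stood at 9.95 ± 0.0603 RPKM and Abcg2 at 7.17 ± 0.209, and Abcb1a stayed last at 0.164 ± 0.0299. Abcc1 and Abcc5 differed by less than 2 SD of Abcc1. The upper limits without the shared bases were 40.6 RPKM for Ugt1a7c and 26.9 for Ugt1a6a, both above Abcb1b (25.4 on the same rule), so which of the 3 genes led was not settled. Abcb1b now lay above 89.0% of the genes and Ugt1a7c above 84.6%, against 65.7% and 55.0% without genistein.

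**Figure D1:**
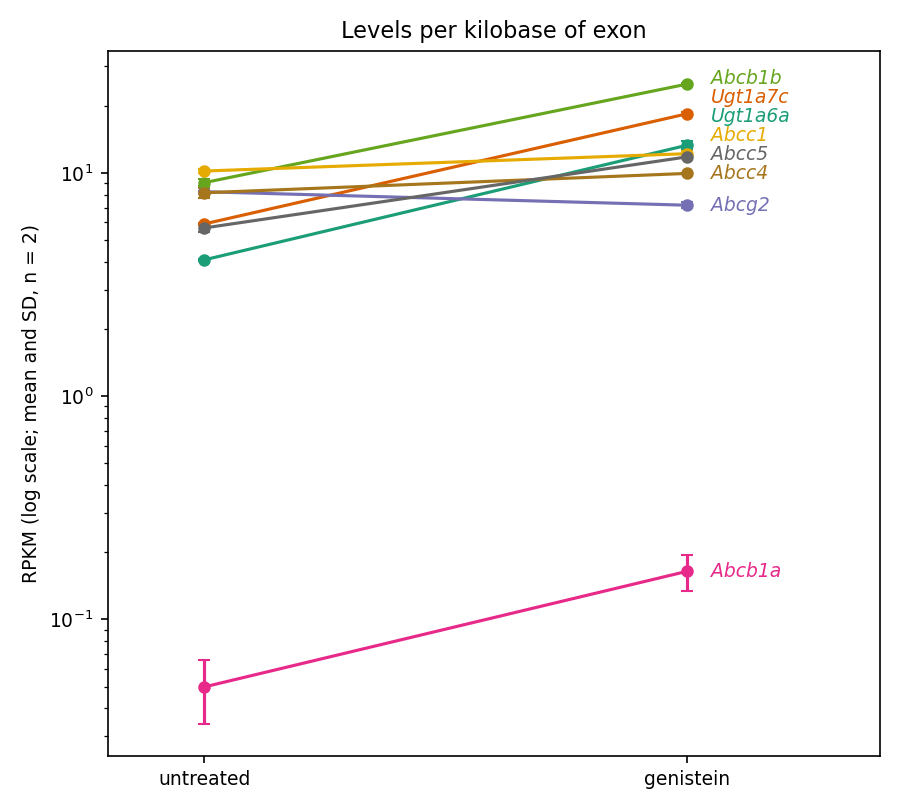
Level of each of the 8 detected genes in RPKM on a log scale, in untreated and genistein libraries (points are means, bars are SD, n = 2). The lines of Abcb1b, Ugt1a7c, Ugt1a6a and Abcc5 climb steeply while Abcg2 falls slightly, and Abcb1a rises from 0.0498 to 0.164 RPKM, far below the others.

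Genistein libraries were then compared with untreated libraries gene by gene. Of the 8 tested genes, 7 were higher and 1, Abcg2, was lower (edgeR's quasi-likelihood test, adjusted p under 0.05 after the Benjamini-Hochberg method over 17358 genes and repeats). Over all tested entries 36.2% were called higher and 36.0% lower, so a call by itself is common in this comparison. Past the thresholds of the study's methods as well (log2 fold change over 1 and mean normalised count over 100) stood 4 of the 8, Ugt1a6a, Ugt1a7c, Abcb1b and Abcc5, against 3.91% of all entries in the higher direction. The median log2 fold change of the 8 genes was 1.26, against 0.015 over all entries. These figures describe the list and test nothing, since the genes were chosen with earlier results of these data known. The rows of Ugt1a6a and Ugt1a7c share exon bases, and those of Abcb1a and Abcb1b share sequence, so the 8 rows are not separate measurements. Summed, the Ugt1a rows had a log2 fold change of 1.65 and the Abcb1 pair 1.47. A higher level in bulk RNA can come from more RNA per cell or from more cells that hold it, and these cannot be told apart here. Both genistein libraries lay above both untreated ones in 7 of the 8 genes and below them in Abcg2, which over all tested entries was so for 43.4% (above) and 42.0% (below).

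**Figure D2:**
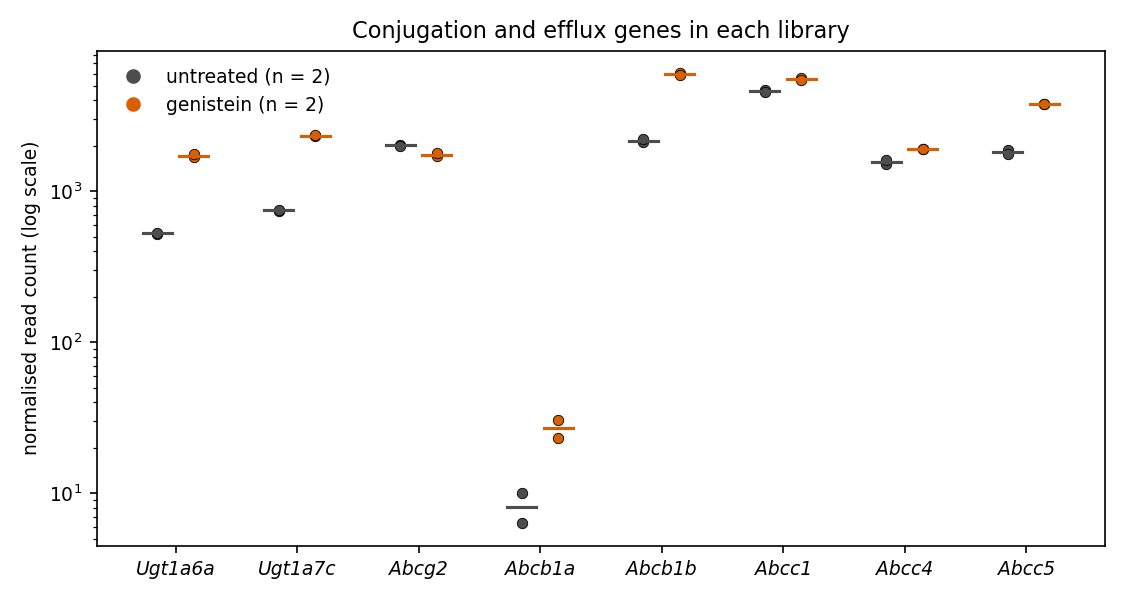
Normalised read count on a log scale for the 8 genes with counts, 1 point per library, with the group mean as a line (n = 2 per group). The 2 genistein libraries lie above both untreated libraries in every gene but Abcg2, where they lie below (43.4% and 42.0% of all tested entries), and the points of a group mostly cover each other except in Abcb1a.

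The upstream sequence of the 4 genes past the thresholds is shown here. That of Abcc4, which was not past them, was added because its window holds letter matches tied to xenobiotic and antioxidant responses. The windows of the 4 genes past the thresholds held no such match. Each line is the 250 bases before a RefSeq start of the gene on GRCm38.p6, on the strand of the gene. Capitals mark the letters of 4 short motifs on either strand, namely the core of the xenobiotic response element (GCGTG), the core of the antioxidant response element (TGACNNNGC), the CCAAT box (CCAAT) and the GC box (GGGCGG). The windows lie at chr1:88134559-88134808 on the plus strand (Ugt1a6a), chr1:88094751-88095000 plus (Ugt1a7c), chr5:8797897-8798146 plus (Abcb1b), chr16:20426395-20426644 minus (Abcc5) and chr14:118706220-118706469 minus (Abcc4, the first of its 2 RefSeq windows).
Ugt1a6a: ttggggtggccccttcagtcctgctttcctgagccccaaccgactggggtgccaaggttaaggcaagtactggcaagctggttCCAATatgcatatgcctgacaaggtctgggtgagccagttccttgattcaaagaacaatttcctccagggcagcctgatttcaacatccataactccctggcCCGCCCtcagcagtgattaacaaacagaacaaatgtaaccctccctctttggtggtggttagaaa
Ugt1a7c: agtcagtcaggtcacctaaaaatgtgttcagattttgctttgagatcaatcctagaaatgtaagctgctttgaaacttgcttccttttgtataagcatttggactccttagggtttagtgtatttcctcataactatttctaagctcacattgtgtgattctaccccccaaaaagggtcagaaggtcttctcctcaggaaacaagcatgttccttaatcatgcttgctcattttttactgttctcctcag
Abcb1b: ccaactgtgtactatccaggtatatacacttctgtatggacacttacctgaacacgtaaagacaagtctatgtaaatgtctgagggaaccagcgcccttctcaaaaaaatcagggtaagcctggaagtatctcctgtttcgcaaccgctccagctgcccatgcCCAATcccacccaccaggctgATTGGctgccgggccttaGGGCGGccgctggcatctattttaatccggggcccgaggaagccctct
Abcc5: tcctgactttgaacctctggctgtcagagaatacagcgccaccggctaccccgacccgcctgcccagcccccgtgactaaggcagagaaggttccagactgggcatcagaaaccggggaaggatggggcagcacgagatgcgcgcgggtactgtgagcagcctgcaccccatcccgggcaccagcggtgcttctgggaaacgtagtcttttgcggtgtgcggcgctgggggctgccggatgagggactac
Abcc4: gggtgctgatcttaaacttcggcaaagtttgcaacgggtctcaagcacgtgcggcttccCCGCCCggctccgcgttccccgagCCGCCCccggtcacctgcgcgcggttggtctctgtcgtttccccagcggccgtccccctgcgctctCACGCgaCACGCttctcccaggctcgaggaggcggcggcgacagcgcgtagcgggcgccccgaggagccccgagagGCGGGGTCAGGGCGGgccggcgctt

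RefSeq windows were matched for 8 of the 9 genes and not for Abcc1. Upstream of Ugt1a6a there was a CCAAT box 167 bases and a GC box 65 bases before the start, while the Ugt1a7c window held none of the 4 motifs. Abcb1b had CCAAT boxes 87 and 66 bases and a GC box 48 bases before its start. Abcc5 held none. Abcc4, with a log2 fold change of 0.29, had xenobiotic cores at 101 and 94 bases, an antioxidant core at 25 bases directly followed by a GC box at 16, and further GC boxes at 191 and 167. The other Abcc4 window, chr14:118676932-118677181, held an antioxidant core at 23 bases and no xenobiotic core or GC box. Matches did not overlap in these 5 windows. Among the windows not shown, Abcg2, the gene that fell, had GC boxes at 109 and 103 bases in window 2. Its window 3 had them at 146, 106, 50 and 8 bases, and its window 1 held none of the 4 motifs. Undetected Sult1a1 had a CCAAT box at 133 bases. The window of Abcb1a, which rose, held no match. It lies at chr5:8566841-8567090, far upstream of the exon model used here, which starts at 8660077, so bases next to that start were not scanned. Among all 32851 RefSeq windows of this length, 28.2% held the xenobiotic core, 10.2% the antioxidant core, 33.8% a CCAAT box and 32.7% a GC box. A match is a run of letters and not a measured binding site.

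Both glucuronosyltransferases rose about 3-fold. Ugt1a6a, an enzyme of small planar phenols, had normalised read counts of 523 and 529 without genistein and 1672 and 1769 with it. The gene rose 3.27-fold (log2 fold change 1.71 ± 0.056, SE, adjusted p = 1.8e-13), and 97.2% of tested entries had a smaller log2 fold change. Both genistein libraries stood far above both untreated ones, and the difference was many times the SDs of 4.17 and 68.9 normalised counts.

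Ugt1a7c, which also acts on phenolic compounds, had 740.2 and 751 normalised counts without genistein and 2305 and 2351 with it. The increase was 3.12-fold (log2 fold change 1.64 ± 0.047, SE, adjusted p = 3.2e-14). The log2 ratio of Ugt1a7c to Ugt1a6a counts was 0.50 in both untreated libraries and 0.46 and 0.41 after genistein, a difference of -0.065. This difference was small beside the rise of either gene, and the exact two-sided permutation p was 0.333, the smallest that 2 against 2 libraries can give.

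The gene models of these enzymes overlap. Ugt1a6a spans chr1:88134809-88218997 and Ugt1a7c spans chr1:88095062-88220002 on the plus strand of GRCm38, within a cluster in which 9 Ugt1a genes each have their own first exon and join the same last exons. The 9 genes share 4 exon blocks of 132, 88, 220 and 871 bases, 1311 bases in all. Of the 4312 exon bases of Ugt1a6a, 50.3% belong to another Ugt1a gene too, and of the 4219 of Ugt1a7c, 54.6%. An exon of 859 bases, chr1:88138473-88139331, is part of a Ugt1a6a transcript and of a Ugt1a7c transcript. Ugt1a7c alone reaches into 998 further bases of the last exon, chr1:88219005-88220002. Most exon bases held by Ugt1a6a alone lie between the common blocks, where the other Ugt1a models have introns. The 998 bases of Ugt1a7c directly follow bases shared with other Ugt1a genes. Unspliced or extended RNA of another Ugt1a gene could add reads at these places, which was not tested.

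**Figure D3:**
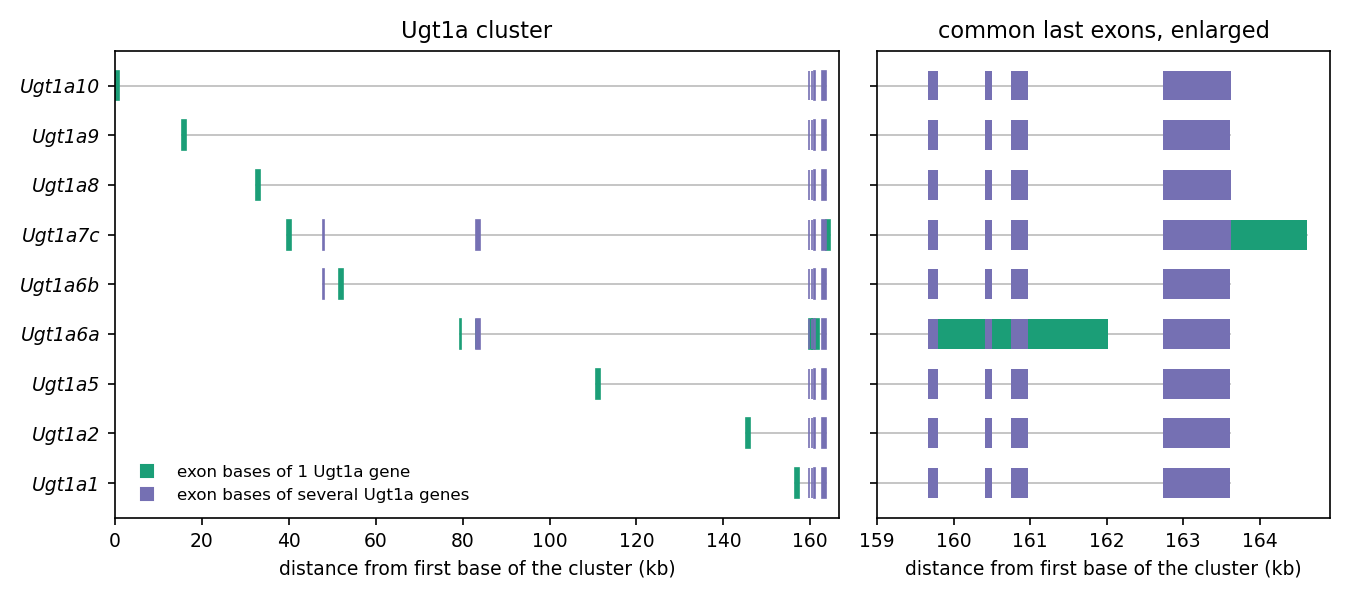
Map of the exons of the 9 Ugt1a genes, drawn to scale in kb from the first base of the cluster, with the common last exons enlarged on the right. By annotation, green blocks belong to 1 Ugt1a gene and purple blocks to several, and all 9 genes share the 4 purple blocks at the right end. Reads in green blocks between or after the purple ones need not come from that gene alone.

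A read in the common blocks can therefore not be tied to 1 gene by its position, and the rows of the Ugt1a genes are not taken as independent measurements. The counts ran from 0 or 1 in Ugt1a10 to 4853 in Ugt1a6b, so shared reads were not divided evenly over the 9 rows. Whether the counter left such reads out or divided them unevenly is not given in the sources used here. Ugt1a6b took 37.6% and 36.9% of all Ugt1a counts in untreated cells and 37.4% and 37.8% after genistein. Ugt1a1, whose product conjugates bilirubin, took 28.4% and 27.9% without genistein and 26.4% and 26.7% with it. The shares of Ugt1a7c (18.4%, 19.2%, 19.0% and 18.4%) and of Ugt1a6a (13.0%, 13.5%, 13.8% and 13.8%) are given in the order untreated 1 and 2 and genistein 1 and 2, and varied by less than 1 percentage point. Among the 6 rows above 1%, Ugt1a5 moved most in proportion, from 1.19% and 1.27% to 2.02% and 1.84%. The exact Clopper-Pearson 95% interval of genistein 1 (1.79% to 2.28%) lay above those of both untreated libraries, and that of genistein 2 (1.62% to 2.09%) overlapped that of untreated 2 (0.937% to 1.69%).

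Summed over the 9 rows, which leaves the division of shared reads out of account, the cluster had 4022 and 3909 normalised counts without genistein and 12160.4 and 12792 with it. This was a 3.15-fold increase (log2 fold change 1.65 ± 0.043, SE, adjusted p = 1.2e-14). An antisense gene within the cluster, Gm20528, had 4, 1, 10 and 11 counts in untreated 1 and 2 and genistein 1 and 2. Of the 100-base stretches of Ugt1a6a transcripts, 36.3% were also found in those of Ugt1a6b, the common last exons included.

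**Figure D4:**
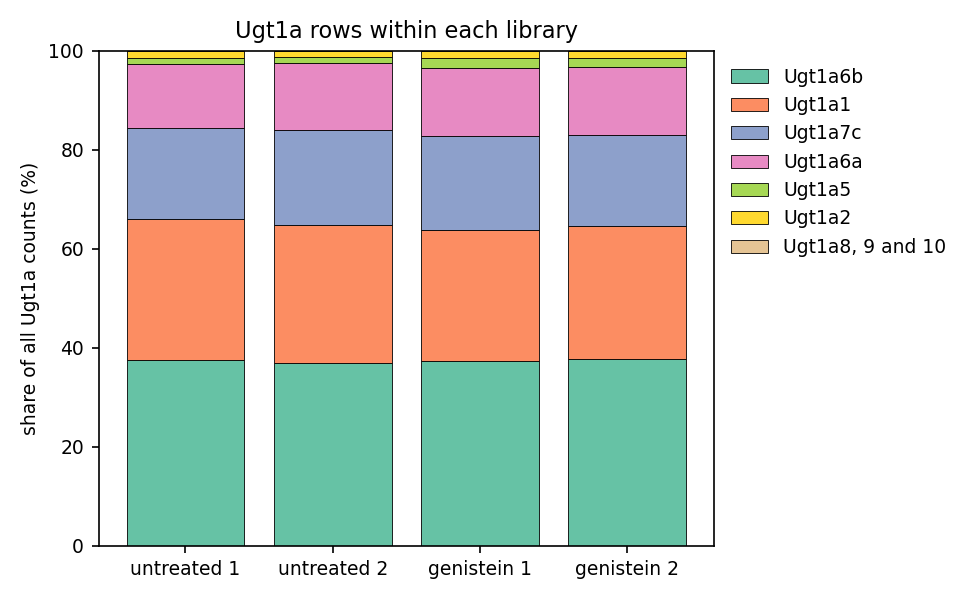
Share of all Ugt1a counts, in percent, that each Ugt1a row took in the 4 libraries, as stacked bars that add to 100%. The bars look nearly alike across libraries, with Ugt1a6b at 36.9% to 37.8% in each, and the thin Ugt1a5 band is wider with genistein.

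Almost all counts of the P-glycoprotein pair were those of Abcb1b. Abcb1b (chr5:8798147-8866315, plus strand) had normalised read counts of 2108 and 2220.1 without genistein and 6030.4 and 5912 with it. The increase was 2.76-fold (log2 fold change 1.46 ± 0.036, SE, adjusted p = 5.9e-15). Both genistein libraries lay far above the untreated range. Of its exon bases 143 overlap Gm5106 on the opposite strand, which had at most 7 counts in a library.

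Abcb1a, the neighbouring gene at chr5:8660077-8748575, had raw counts of 10 and 6 without genistein and 25 and 30 with it, and the exact Poisson 95% intervals of untreated 1 (4.80 to 18.4) and genistein 1 (16.2 to 36.9) overlap. Its fitted increase was 3.22-fold (log2 fold change 1.69 ± 0.36, SE, adjusted p = 0.0006), and it stayed under the count threshold of 100. Its share of the counts of the pair was 0.472% and 0.285% without genistein and 0.387% and 0.511% with it, and these values overlapped between groups (difference of the log2 ratio of Abcb1b to Abcb1a -0.28, exact two-sided permutation p = 0.667). The transcripts of the pair are similar, and 9.03% of the 100-base stretches of Abcb1a occur in Abcb1b, so a read from such a stretch cannot be tied to either gene. The 2 rows together rose 2.76-fold (log2 fold change 1.47 ± 0.036, SE, adjusted p = 5.8e-15).

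Among the 3 Abcc genes, Abcc5 had the largest increase. Abcc5 (chr16:20331303-20426394, minus strand), which exports cyclic nucleotides and other organic anions, had 1860.1 and 1761 normalised counts in untreated cells and 3766 and 3801 with genistein. The increase was 2.09-fold (log2 fold change 1.06 ± 0.038, SE, adjusted p = 6.3e-13), just past the threshold of 1. It no longer passed when the fold threshold itself was tested, with edgeR's glmTreat. Abcc5 shares no exon base with another gene.

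Abcc1 (chr16:14361558-14475737, plus strand), an exporter of glutathione and glucuronide conjugates, had 4682 and 4524 normalised counts without genistein and 5595 and 5414 with it. This was a 1.20-fold increase (log2 fold change 0.26 ± 0.033, SE, adjusted p = 3e-06). The groups did not overlap, but the change was small, and 63.2% of tested entries had a smaller log2 fold change. Abcc4 (chr14:118482692-118706219, minus strand), which exports cyclic nucleotides and conjugated steroids, had 1502 and 1613 normalised counts without genistein and 1910.1 and 1894 with it, a 1.22-fold increase (log2 fold change 0.29 ± 0.045, SE, adjusted p = 2.6e-05). The log2 ratio of Abcc5 to Abcc1 counts went from -1.33 and -1.36 to -0.57 and -0.51, a difference of 0.81, with both genistein libraries above both untreated ones (exact two-sided permutation p = 0.333, the smallest possible).

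Abcg2 (chr6:58584523-58695676, plus strand), the exporter of sulfated and glucuronidated flavonoids, was the 1 gene that fell. It had normalised read counts of 2017 and 2004 in untreated cells and 1712 and 1784 with genistein, a 1.15-fold decrease (log2 fold change -0.20 ± 0.041, SE, adjusted p = 0.00035). Both genistein libraries lay under both untreated ones, and 37.0% of tested entries had a smaller log2 fold change.

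Related genes of the same steps, 92 in all on lists by role, were examined for context, and 91 had a row. Of the 33 tested, 17 were higher, 9 lower and 7 not called, beside the 36.2% higher and 36.0% lower over all entries. Their median log2 fold change was 0.14.

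The listed sulfotransferases, which all belong to the Sult family, were nearly absent from these libraries. Sulfotransferase genes outside the list, other families included, were not examined. None of the 12 other Sult genes listed passed the filter, and 8 had 0 counts in every library. Sult2b1, an enzyme of cholesterol sulfation, had 11, 7, 0 and 1 counts in untreated 1 and 2 and genistein 1 and 2. The supply of the sulfate donor was expressed, and of its 7 genes 2 were higher, 4 lower and 1 not called. Slc26a2, a sulfate importer, went from 847 ± 30.4 to 1567 ± 59.9 normalised counts (log2 fold change 0.89, adjusted p = 2.6e-10). Papss2, which makes the donor PAPS, went from 367 ± 18.0 to 487 ± 0.855 (0.41, adjusted p = 0.00011). Bpnt1, which breaks down the spent donor, fell from 1465 ± 87.4 to 1026 ± 2.41 (-0.51, adjusted p = 2.3e-07). Impad1 (-0.16, adjusted p = 0.00042) and Slc35b2 (-0.17, adjusted p = 0.015) also fell, and Slc35b3, a Golgi carrier of the donor, was not called (0.08, adjusted p = 0.33). Papss1 was lower by edgeR (-0.10, adjusted p = 0.036). The calls of Papss1 and Slc35b2 were lost with library totals as the scale, at log2 fold changes of -0.033 and -0.10, and also without untreated replicate 1 (-0.079 and -0.10) or genistein replicate 1 (-0.11 and -0.13). Both calls were lost too when repeats were left out, with scaling factors from genes alone or a fit of genes alone (-0.059 and -0.13 each time). DESeq2 called neither (adjusted p = 0.14 and 0.068). Papss1 lost its call without genistein replicate 2 (-0.088) and with the replicate block (adjusted p = 0.052) too.

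Of 19 other glucuronosyltransferases listed, the 4 tested were all rows of the Ugt1a cluster and all were higher, while 12 genes, every Ugt2 and Ugt3 gene listed, had 0 counts. Ugt1a6b went from 1477 ± 50.6 to 4690.4 ± 198 normalised counts (log2 fold change 1.67, adjusted p = 6.6e-15) and Ugt1a1 from 1118 ± 35.5 to 3312 ± 152 (1.57, adjusted p = 3.8e-14). Ugt1a5 went from 48.9 ± 1.28 to 241 ± 6.96 (2.30, adjusted p = 2.6e-10) and Ugt1a2 from 47.2 ± 5.33 to 170.4 ± 0.945 (1.85, adjusted p = 1.3e-08). The models of these rows share the common exons, and the rows are not taken as separate support for the rise of Ugt1a6a and Ugt1a7c.

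The 3 genes that supply glucuronic acid were all higher. Ugdh, which oxidises UDP-glucose to UDP-glucuronic acid, had 3130 and 2851 raw counts without genistein and 5128 and 4829 with it, a 1.58-fold increase (log2 fold change 0.66 ± 0.034, SE, adjusted p = 4.7e-11). Slc35d1, which carries the donor into the endoplasmic reticulum, rose 1.89-fold (0.92 ± 0.083, SE, adjusted p = 4.7e-08). Ugp2, which makes UDP-glucose, rose 1.10-fold (0.14 ± 0.038, SE, adjusted p = 0.0035), and its call was lost without genistein replicate 2 (log2 fold change 0.10, adjusted p = 0.055). Gusb, the lysosomal glucuronidase that removes glucuronic acid, was lower (-0.34, adjusted p = 1.4e-06). Sumf1, which activates sulfatases, was higher (0.29, adjusted p = 0.00028), and Sumf2 was lower (-0.18, adjusted p = 0.013), but not with library totals as the scale or without untreated replicate 1 (-0.11 in both), nor by DESeq2 (adjusted p = 0.072). Sumf2 also lost its call with scaling factors from genes alone and with a fit of genes alone (-0.13, adjusted p = 0.052 in both).

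Of 14 other efflux transporters listed, 3 were tested. Abcc3, an exporter of glucuronides, had raw counts of 32 and 32 without genistein and 147 and 138 with it, a 4.21-fold increase (log2 fold change 2.07 ± 0.17, SE, adjusted p = 1.1e-08) at a mean count under 100. Abcc10 rose 1.97-fold (0.98 ± 0.085, SE, adjusted p = 2.6e-08). Abcc12 fell from 59 and 54 to 18 and 19 raw counts (-1.68 ± 0.24, SE, adjusted p = 8.4e-06). Abcc2, the canalicular exporter of conjugates in liver, had at most 2 counts in a library.

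Of 20 uptake transporters listed, 6 were tested and edgeR called 0 of them, with 1 at an unadjusted p under 0.05, and DESeq2 called 0. Those with the most counts were Slco2a1 (log2 fold change 0.016, adjusted p = 0.83), Slco3a1 (-0.17, adjusted p = 0.074) and Slc22a5 (0.19, adjusted p = 0.053). Slc22a5 passed with library totals as the scale (0.26, adjusted p = 0.011) and without untreated replicate 1 (0.29). It also passed with scaling factors from genes alone (0.24, adjusted p = 0.021) and with a fit of genes alone (0.24, adjusted p = 0.019).

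Of the 9 xenobiotic regulators listed, 5 were tested. Nfe2l2, the transcription factor of the antioxidant response, had 2103 and 1919 raw counts without genistein and 3023 and 2739 with it (log2 fold change 0.44 ± 0.038, SE, adjusted p = 2.7e-08). Keap1, its inhibitor, was lower (-0.46 ± 0.052, SE, adjusted p = 6.7e-07). Ahr, the aryl hydrocarbon receptor, was lower (-0.36 ± 0.037, SE, adjusted p = 2.3e-07), and its partner Arnt was higher (0.33 ± 0.039, SE, adjusted p = 1.3e-06). Rxra was higher by edgeR (0.10, adjusted p = 0.026) and not by DESeq2 (0.089, adjusted p = 0.19), and leaving out any 1 of the 4 libraries ended its call, at 0.092 to 0.11, as did the replicate block (adjusted p = 0.051). The nuclear receptor gene Nr1i2, known from liver, had 0 counts.

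Among the oxidising enzymes of the first phase of drug metabolism, both tested genes were higher. Cyp1b1, a cytochrome P450 of fibroblasts and a known target of the aryl hydrocarbon receptor, had 12498 and 12150 raw counts without genistein and 22940 and 21425 with it, a 1.70-fold increase (log2 fold change 0.77 ± 0.046, SE, adjusted p = 2.9e-10). Por, the reductase of the cytochromes P450, rose 1.36-fold (0.45 ± 0.036, SE, adjusted p = 1.3e-08). Cyp1a1, the best known target of the same receptor, had 0, 0, 1 and 0 counts in untreated 1 and 2 and genistein 1 and 2.

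**Figure D5:**
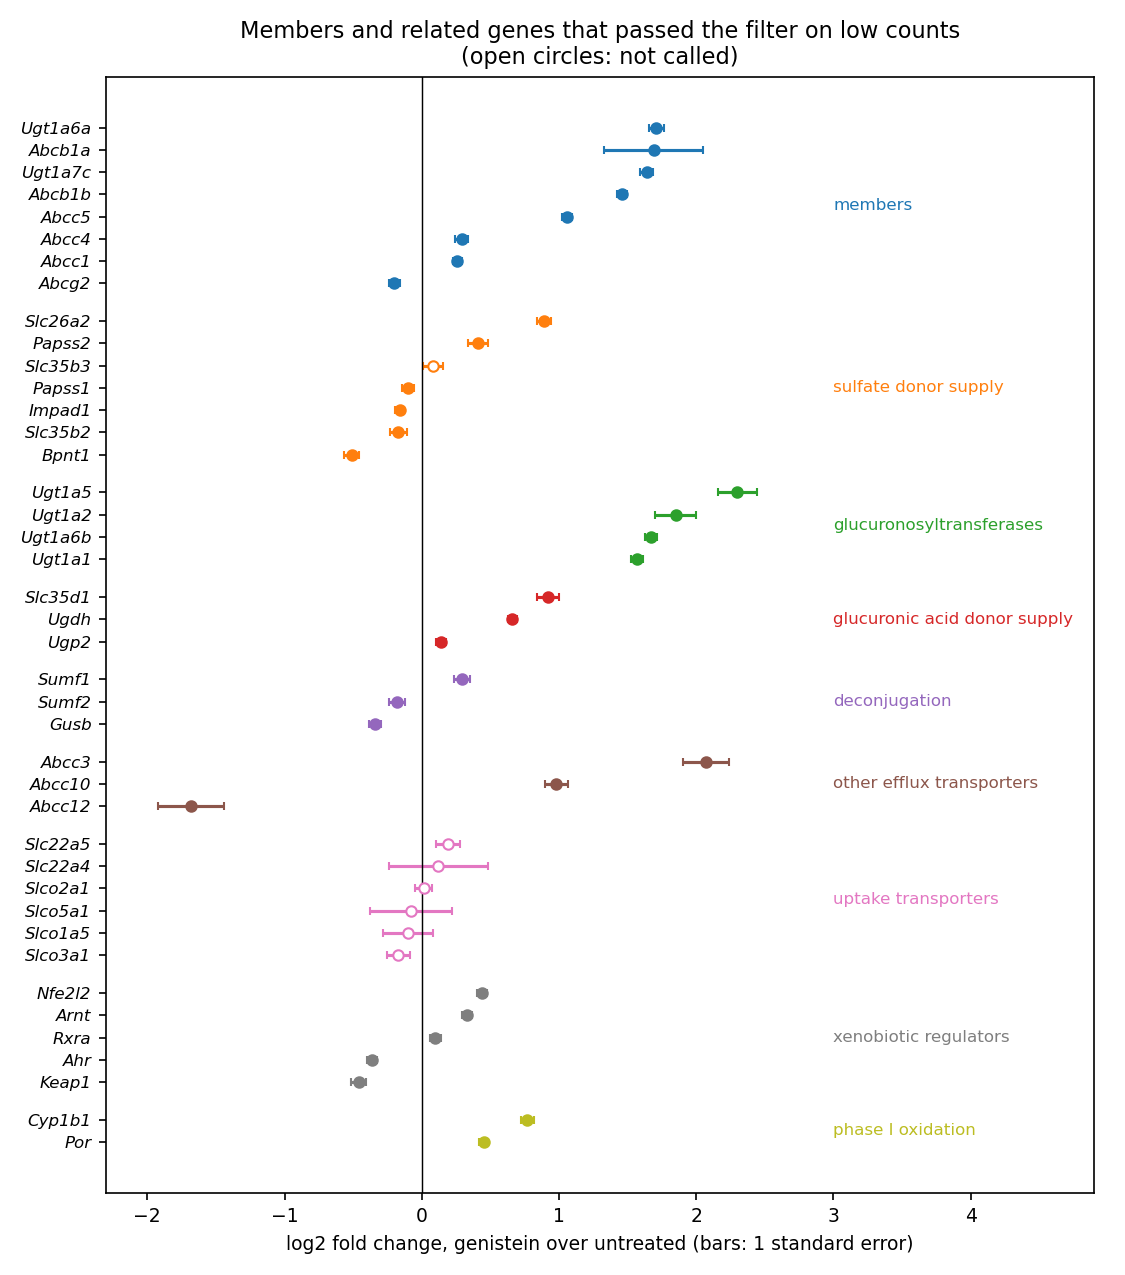
Log2 fold change of genistein over untreated for the 8 tested genes and the 33 tested related genes by role, with bars of 1 standard error (edgeR fit, 2 libraries per group), open circles for genes not called. The Ugt1a rows lie between 1.57 and 2.30, all 3 donor genes of glucuronic acid lie above 0, and the 6 uptake transporters are open circles around 0.

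The gene with the largest called change among the 8, Ugt1a6a, was compared with 11925 genes over the 4 libraries by the distance between their centred log2 CPM values, leaving out predicted genes and pseudogenes. The nearest patterns were those of Mybl1 (distance 0.0342, log2 fold change 1.70), Nipal3 (0.0608, 1.74) and Klhl24 (0.0724, 1.64). Mybl1 encodes a transcription factor of the MYB family and had 647 and 642 normalised counts without genistein and 2065 and 2129 with it. With 4 libraries in 2 groups, such a likeness mainly means a rise of the same size.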

How the data were processed

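Per the labels, the authors made total RNA libraries with a stranded kit. Per the study's methods, they depleted ribosomal RNA, sequenced paired ends, and used Trim Galore for trimming, STAR for alignment to mm10 (GRCm38) with many alignments allowed per read, and TEtranscripts to count genes and repeats. The deposited values are raw counts, not normalised. The strand setting of the counter is not given in the sources used here, so overlapping genes on opposite strands could not be told apart. The table had 47937 genes, 1445 repeats and 1 unnamed entry, which held at most 0.00314% of the counts of a library and was left out.

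Entries were filtered with filterByExpr by group (17358 kept), scaled by TMM and compared with the quasi-likelihood test of edgeR 4.0.16 (R 4.3.3). The p-values were adjusted over the kept entries by the Benjamini-Hochberg method. On simulated counts the test recovered 63 of 96 changes of 1.5-fold and 95 of 99 of 3-fold, and called 6 of 17025 unchanged entries. Few entries were changed in that simulation, while in the data 36.2% were called higher and 36.0% lower. Its rate of false calls therefore need not hold for this comparison. A gene was called at an adjusted p under 0.05. A normalised read count is the count divided by the scaled library size and multiplied by the mean scaled library size. The standard error is the size of the log2 fold change divided by the square root of F. The study's methods used DESeq2, which was an alternative here (1.42.0), and its thresholds. Exon models and coordinates came from a GENCODE annotation of GRCm38 that is later than the authors' own. Intervals and floors cover counting error only, since PCR copies of a molecule were not identified.

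The genes examined and the lists of related genes and markers were chosen with earlier results of these data known. From each related list the text names up to 4 called genes with the largest change and up to 3 genes not called with the most counts, and the 3 genes most like the called gene with the largest change. Impad1, Papss1, Rxra, overlapping genes, genes given by raw counts without a test, and marker genes were named after their values were seen.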

Additional observations from a re-analysis of the deposited data

How the results depend on the processing

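The 8 tested genes kept their direction and their call under every alternative run, namely size factors of DESeq2's kind, library totals, factors from genes alone, a fit of genes alone, no filter, DESeq2, a replicate block, and each fit without 1 library. The number past the study's thresholds was 4, with 3 when the fold threshold was tested with glmTreat, which removed Abcc5, and 5 when the mean count had to exceed 10 in place of 100, which added Abcb1a. Leaving out 1 library gave log2 fold changes of 1.67 to 1.75 for Ugt1a6a, 1.63 to 1.66 for Ugt1a7c, 1.41 to 2.05 for Abcb1a, 1.02 to 1.10 for Abcc5 and -0.23 to -0.17 for Abcg2. Replicate numbers were not shown to pair the samples (correlation of deviations -0.026 over 2 pairs), and with the replicate block Ugt1a6a stood at 1.71, Abcb1b at 1.46 and Abcg2 at -0.20, with 16 related genes higher and 8 lower in place of 17 and 9. The count of lower related genes fell to 6 with library totals, with DESeq2 and without untreated replicate 1, and rose to 11 with no filter. Of 363 values of the 33 related genes under alternatives, 332 kept their side of the threshold, 27 lost a call (Papss1, Slc35b2, Sumf2, Rxra and Ugp2), 4 gained one (Slc22a5) and 0 called values changed sign. The median log2 fold change of all genes lay between -0.042 and 0.037 over the scalings. Abcb1a, with at most 30 counts in a library, and Sult1a1, with 0, are limited by depth.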
